A study of Mus musculus with 3 samples.

Results

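Replication-dependent histone genes supply the histone proteins that package newly copied DNA, and their RNAs were measured here in single mouse macrophages. The genes were taken as the symbols of the deposited feature lists that begin with Hist1h, Hist2h, Hist3h or Hist4h. A gene was kept as a member when its unique molecular identifiers (UMIs, each marking 1 captured RNA molecule) summed to at least 20 over the kept cells of the 3 libraries. Of 32285 genes, 67 symbols matched and 60 were kept, namely 5 genes of the linker histone H1, 16 of H2A, 15 of H2B, 12 of H3 and 12 of H4. The 7 left out were Hist1h4m and Hist1h2ba with 0 UMIs, Hist2h2aa2, Hist1h2bq and Hist1h2aa with 1 UMI each, Hist1h1t with 8 and Hist3h2ba with 11. The members nearest to the threshold were Hist1h3h with 23 UMIs and Hist1h4f with 25.

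The cells were bone marrow derived macrophages (BMDMs) of female C3H/HeN mice aged 6 to 8 weeks, grown in medium conditioned by L929 cells. The UI library held cells labelled untreated, which per the protocol received PBS. The study's methods give 4 h as the collection time of the PBS-treated cells. LP1 therefore also differs from UI in time of collection. The LP1 and LP4 libraries held cells given 1 µg/mL of lipoproteins purified from Borrelia burgdorferi strain B31 (BbLP) for 1 h and 4 h. Marrow was pooled per the labels, and the study's methods describe cells of 3 wells pooled into each library, so that each group was 1 library and no spread between replicates exists. A difference between libraries and an effect of BbLP therefore cannot be told apart, no p-value is given, and every interval printed is a 95% interval for counting error only.

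Histones are made in bulk during S phase, when DNA is copied, and their genes lie in clusters so that H2A, H2B, H3, H4 and H1 can be produced together. H2A, H2B, H3 and H4 form the core around which DNA is wound, and H1 binds the DNA between cores. Most replication-dependent histone mRNAs end in a short stem-loop bound by the protein Slbp instead of a poly(A) tail, although some of these genes also give polyadenylated RNAs, chiefly in cells that have stopped dividing. The libraries were primed with oligo-dT, so the values below are captured molecules and not the total of each histone RNA.

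The stem-loop letters were found in an annotated protein-coding transcript of 40 of the 60 members (66.7%), against 0.0641% of 21834 other protein-coding genes (GENCODE vM21, GRCm38). They were searched on the sense strand by the histone stem-loop consensus, which pairs GG at one end with CC at the other around a run of T. The form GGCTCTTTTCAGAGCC was held by 24 members, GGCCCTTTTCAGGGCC by 6, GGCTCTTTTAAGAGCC by 5, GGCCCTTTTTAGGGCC by 2, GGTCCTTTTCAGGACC by 2 and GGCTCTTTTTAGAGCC by 1. One member of each form is shown, since the forms divide the types. The 10 loops found in H4 genes all had a GGCCC or GGTCC arm, which no other type had, whereas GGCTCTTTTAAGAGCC was in 3 H3 and 2 H2B genes. Capitals mark the stem-loop and lower case its flanking bases, as DNA letters on the strand of the gene, at chr13:21833029-21833044 (minus), chr13:23581950-23581965 (plus), chr13:23745047-23745062 (minus), chr13:22040966-22040981 (minus), chr13:23757366-23757381 (plus) and chr3:96220418-96220433 (minus) in the order of the lines.
Hist1h2ap: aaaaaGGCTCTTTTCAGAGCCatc
Hist1h4d: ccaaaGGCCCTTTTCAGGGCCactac
Hist1h3c: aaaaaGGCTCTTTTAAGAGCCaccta
Hist1h4i: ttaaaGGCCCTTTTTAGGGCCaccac
Hist1h4b: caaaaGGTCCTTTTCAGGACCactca
Hist2h2ac: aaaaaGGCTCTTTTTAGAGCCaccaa

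After the study's limits on cells (over 500 UMIs, over 500 genes and under 5% mitochondrial UMIs), 6071 UI, 5065 LP1 and 4670 LP4 cells were kept, with 35688939, 52475723 and 61402275 UMIs and a median of 5133, 9343 and 11784 UMIs per cell. All 8 macrophage markers were detected in each library at a summed 11680 to 12240 CPM, the UMIs of a gene per 1000000 UMIs of the library. Neutrophil markers summed to 284 to 528 CPM, dendritic cell markers to 194 to 214 CPM and stromal markers to 2.44, 3.58 and 13.7 CPM, and no marker was at 0. Of kept barcodes, 9 were shared between UI and LP1, 7 between UI and LP4 and 3 between LP1 and LP4.

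The 60 members together took up 660 CPM in UI, 610 CPM in LP1 and 638 CPM in LP4, a narrow range that hid opposite differences between histone types. H1 stood at 276, 349 and 319 CPM in the 3 libraries. H2A stood at 201, 129 and 159 CPM. H4 stood at 90.9, 44.4 and 56.5 CPM. Thus H1 was higher and the core types H2A and H4 were lower after BbLP, most of all at 1 h, and H1 held 41.8% of the histone UMIs in UI, 57.3% in LP1 and 50.05% in LP4. H3, at 42.7, 27.8 and 31.0 CPM, was ordered like H2A and H4, whereas H2B, at 49.3, 58.9 and 71.6 CPM, was higher in each BbLP library. In these library sums, fewer cells with histone RNA and less histone RNA per cell cannot be told apart.

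**Figure D1:**
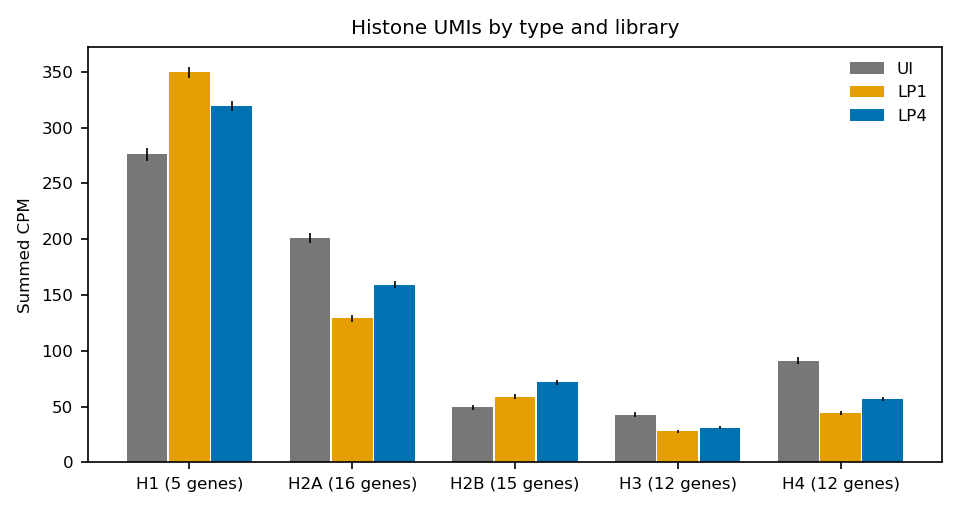
Summed level of the members of each histone type in UI, LP1 and LP4, in CPM, with 95% counting intervals. H1 was higher in LP1 (349) and LP4 (319) than in UI (276), whereas H2A, H3 and H4 were lowest in LP1.

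As log2 ratios of CPM, LP1 over UI was 0.34 (0.31 to 0.38) for H1, -0.64 (-0.69 to -0.59) for H2A, 0.26 (0.17 to 0.34) for H2B, -0.62 (-0.72 to -0.51) for H3 and -1.03 (-1.11 to -0.96) for H4. LP4 over UI had the same signs and was 0.21, -0.34, 0.54, -0.46 and -0.69 in that order. All of these intervals lay on one side of 0. The sum of all members differed little, at -0.11 (-0.14 to -0.09) for LP1 over UI and -0.05 (-0.07 to -0.03) for LP4 over UI, and its sign in the latter was positive (0.12 and 0.16) when the libraries were scaled by TMM or by the median of ratios, which moved the median of all genes from -0.16 to 0.00 and 0.04. The signs of the 5 types against UI held under both scalings.

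A single gene decided the sign of H2B. Hist1h2bc, at chr13:23684199-23692908, stood at 21.01 CPM in UI, 41.8 CPM in LP1 and 47.3 CPM in LP4. Without it, the other 14 H2B genes summed to 28.2, 17.1 and 24.3 CPM, with log2 ratios of -0.72 (-0.85 to -0.59) for LP1 over UI and -0.22 (-0.33 to -0.10) for LP4 over UI. All core genes but Hist1h2bc summed to 363, 218 and 271 CPM, so in CPM they were lower at both times and lowest at 1 h. The other types kept their signs in CPM without their most abundant gene. H1 without Hist1h1b was 0.16 and 0.35 and H2A without Hist1h2ap was -0.71 and -0.24, for LP1 and LP4 over UI. H3 without Hist1h3e was -0.42 and -0.30, and H4 without Hist1h4d was -0.81 and -0.36. These sums were taken in CPM only, where all genes tested had a median of -0.16 for LP4 over UI. TMM and the median of ratios moved that median to 0.00 and 0.04. The LP4 values near it, such as -0.22 and -0.24, would be of much smaller size under those scalings. They were not computed there.

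The linker histone genes differed among themselves in their time course. Hist1h1b, at chr13:21779883-21780625, was the most abundant member, with 126 CPM (122 to 129) in UI, 181 CPM (178 to 185) in LP1 and 128 CPM (125 to 131) in LP4. It was higher at 1 h (log2 ratio 0.53, 0.48 to 0.58), while at 4 h it lay within counting error of UI (0.03, -0.03 to 0.08). Hist1h1a followed the same order of LP1 above UI, at 9.05, 11.9 and 6.78 CPM, but was below UI in LP4 (-0.42, -0.63 to -0.20). Hist1h1c, by contrast, was higher at each time, at 63.6, 77.8 and 94.0 CPM. Hist1h1e stood at 67.9, 69.5 and 80.2 CPM and Hist1h1d at 9.61, 8.82 and 10.3 CPM, and neither differed between UI and LP1 beyond counting error (0.03, -0.04 to 0.11, and -0.12, -0.33 to 0.08). Hence in CPM no H1 gene was 1.5-fold different from UI in either BbLP library. This depended on the processing. Over 8 alternatives that used all cells, Hist1h1c reached 0.77 and Hist1h1a -0.61 for LP4 over UI, and Hist1h1b 0.605 for LP1 over UI. These values lie past 1.5-fold. For LP4 over UI, Hist1h1b ranged from -0.18 to 0.23 over the same alternatives. Its place within counting error of UI at 4 h thus also depended on the processing.

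Among the core H2A genes, the abundant members were all lower in LP1. Hist1h2ap stood at 109, 72.9 and 81.4 CPM, Hist1h2ae at 42.4, 26.5 and 32.0 CPM and Hist2h2ac at 14.3, 8.19 and 13.1 CPM. Hist1h2ap and Hist1h2ae remained below UI at 4 h, with log2 ratios of -0.42 (-0.49 to -0.36) and -0.41 (-0.50 to -0.31), whereas Hist2h2ac was back within counting error of it (-0.14, -0.30 to 0.03). Hist2h2aa1, at 11.8, 5.77 and 13.3 CPM, had the largest LP4 over LP1 ratio of the members with at least 10 CPM in a library (1.21, 1.02 to 1.40). Of the less abundant H2A genes, Hist1h2ah, named after its values were seen, had the lowest LP1 over UI ratio of all members, -1.93 (-3.15 to -0.83), on 53 UMIs in all.

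For H2B, Hist1h2be stood at 5.07, 3.94 and 7.95 CPM and Hist1h2bm at 2.998, 1.83 and 1.47 CPM. Hist1h2be was therefore lower at 1 h (-0.36, -0.66 to -0.07) and higher at 4 h (0.65, 0.40 to 0.90), and Hist1h2bm was lower at both (-0.71 and -1.03). Hist1h2be is annotated across chr13:23583670-23621124 on the minus strand and overlaps Hist1h1e on that strand. Reads from the stretch they share fit both genes, so the counts of these 2 genes are uncertain.

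For H3, Hist1h3e stood at 13.8, 6.27 and 7.59 CPM, Hist1h3c at 8.04, 5.03 and 6.99 CPM and Hist2h3c2 at 6.14, 5.60 and 3.21 CPM. Hist1h3e was lower at both times and Hist1h3c at 1 h. Hist2h3c2 lay within counting error of UI at 1 h (-0.13, -0.39 to 0.13) and below it at 4 h (-0.94, -1.22 to -0.65). Hist2h3c1, named after its values were seen, was the only H3 gene at least 1.5-fold higher in LP1, at 1.23, 2.59 and 3.24 CPM.

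H4 held the lowest ratios among abundant members. Hist1h4d stood at 52.4, 22.4 and 26.5 CPM, Hist1h4h at 18.4, 7.05 and 9.02 CPM and Hist1h4c at 5.44, 2.10 and 4.09 CPM. Their log2 ratios of LP1 over UI were -1.22 (-1.33 to -1.12), -1.39 (-1.57 to -1.20) and -1.37 (-1.73 to -1.03), and at 4 h Hist1h4d and Hist1h4h were still at -0.98 and -1.03. Hist1h4i went the other way, at 6.33, 8.14 and 8.76 CPM (0.36, 0.13 to 0.60, and 0.47, 0.24 to 0.70). The H4 genes encode the same or nearly the same protein, and their RNAs thus differed in direction between libraries. Hist2h4, also named after its values were seen, stood at 1.06, 0.877 and 2.39 CPM, 1.17 (0.65 to 1.72) for LP4 over UI.

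**Figure D2:**
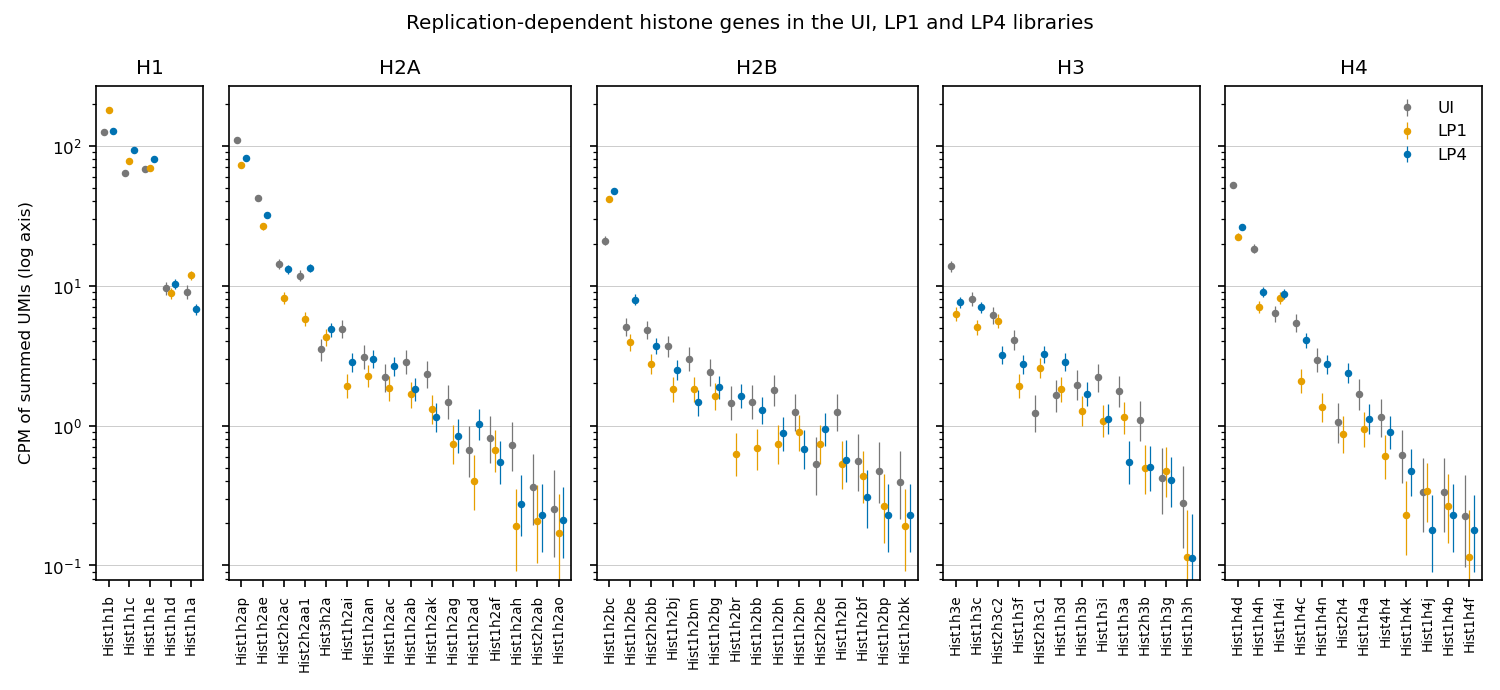
Level of each of the 60 members in UI, LP1 and LP4, grouped by histone type, in CPM on a log axis with 95% counting intervals. Hist1h1b was the highest member in each library, at 126, 181 and 128, and the lowest members, such as Hist1h4f and Hist1h3h, lay under 0.3.

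Of the 60 members, 36 (60%) were at least 1.5-fold lower in LP1 than in UI, against 10.9% of the 15154 genes with at least 20 UMIs, and 2 (3.33%) were at least 1.5-fold higher, against 6.71%. The 36 comprised 11 H2A, 9 H2B, 8 H3, 8 H4 and no H1 genes, and the 2 were Hist1h2bc and Hist2h3c1. The median log2 ratio was -0.73 over the members and -0.05 over all genes tested. The interval lay below 0 in 33 members and above 0 in 6. The same count over all genes tested was not taken, so these 2 counts have no background beside them. Hist1h2ap, at -0.59, sat at the 1.5-fold threshold itself.

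For LP4 over UI, 23 members (38.3%) were at least 1.5-fold lower, against 30.8% of all genes tested, and 7 (11.7%) were at least 1.5-fold higher, against 20.6%. The lower share was close to the background, and under the median of ratios the split was 18 lower and 10 higher, against 22.7% and 27.0% of all genes tested. The 23 were 6 H2A, 7 H2B, 7 H3 and 3 H4 genes, and the 7 were Hist1h2bc, Hist1h2be, Hist2h3c1, Hist2h4, Hist1h3d, Hist2h2be and Hist1h2ad. The median was -0.41 over the members and -0.16 over all genes tested. For LP4 over LP1, 4 members (6.67%) were at least 1.5-fold lower, against 25.3%, and 12 (20.0%) were at least 1.5-fold higher, against 18.8%. Those 4 were Hist1h1a, Hist2h3c2, Hist1h3a and Hist1h4j, the last on few UMIs, and the member median was 0.25 where that of all genes tested was -0.11. These 3 comparisons share libraries and are not independent of each other.

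**Figure D3:**
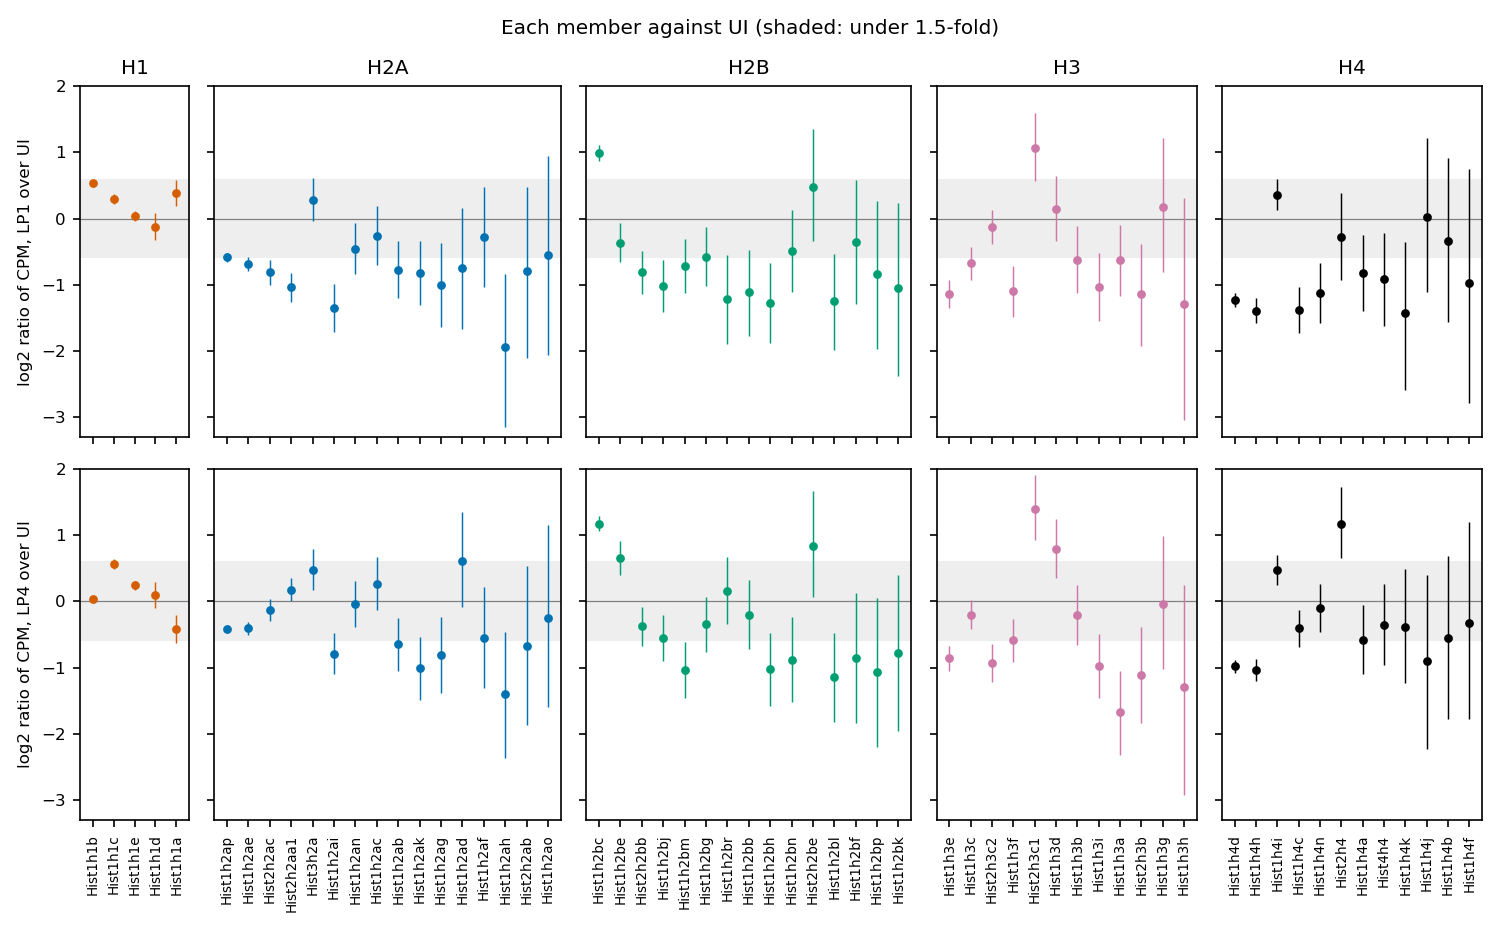
Log2 ratio of CPM for each member, LP1 over UI above and LP4 over UI below, by histone type in order of abundance, with 95% counting intervals and the range under 1.5-fold shaded. In LP1, 36 members lay below the shaded range and 2 above it, and no H1 gene left it in either row.

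Histone RNAs are short, and short RNAs of other genes were also lower in LP1. The longest annotated transcript was under 1000 bases in 43 members and 555.5 bases at the median. Of 474 non-member genes with a longest transcript under 600 bases, 43.5% were at least 1.5-fold lower in LP1 than in UI, with a median log2 ratio of -0.51, and of the 32 members of that length 78.1% were, with a median of -0.82. The same shares for LP4 over UI were 51.5% and 50%. Non-member genes of at least 2000 bases had a median of -0.04 for LP1 over UI, and the 17 members of at least 1000 bases had -0.13, against -0.81 in the 43 shorter members. Ribosomal protein genes had a median of -0.16. The part that transcript length had in the members' ratios was not tested.

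Members were next compared between cells with at least 1 UMI of Mki67 or Top2a, which mark cycling cells, and cells with none. Such cells were 48.9% of UI, 59.9% of LP1 and 75.7% of LP4 cells and held 55.1%, 65.2% and 79.8% of all UMIs. They held 88.1%, 89.3% and 91.9% of the histone UMIs. The summed histone level was 1055 against 175 CPM in UI, 835 against 188 CPM in LP1 and 734 against 256 CPM in LP4, which is 6.04-fold, 4.45-fold and 2.87-fold. Of the 60 members, 55 (91.7%) were at least 1.5-fold higher in the cells with these UMIs in UI, against 11.0% of all genes tested. The corresponding counts were 50 (83.3%) against 12.3% in LP1 and 45 (75%) against 9.30% in LP4. Where the cells without these UMIs held 0 of a member, 3 counts stood in for it. Hist1h3h and Hist1h4f in LP1 were therefore not counted as higher. The same held in LP4 for them and for Hist1h4j, Hist1h2bp, Hist1h2bk and Hist1h2ah. All UMIs of these members lay in the cells with Mki67 or Top2a UMIs, so part of the fall in the counts comes from the stand-in.

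The members spread widely in this respect. Hist1h1b stood at 225 against 3.31 CPM in UI, 277 against 2.46 CPM in LP1 and 159 against 6.14 CPM in LP4, and was thus low in cells without Mki67 or Top2a UMIs. It was among 13 members at least 8-fold higher in all 3 libraries, with Hist1h2ap, Hist1h2ae, Hist1h2bm, Hist1h3c and Hist1h1a. Hist1h2bc stood at 19.1 against 23.4 CPM, 39.0 against 47.1 CPM and 48.1 against 44.0 CPM. It and Hist1h4i, Hist2h3c1 and Hist3h2a were the 4 members under 1.5-fold apart in all 3 libraries, and all 4 had log2 ratios above 0 for LP1 and for LP4 over UI. The shares of all genes at these limits were not taken, so the counts of 13 and 4 have no background. They describe these members only. Hist3h2a, named after its values were seen, stood at 3.50, 4.27 and 4.87 CPM. Its interval for LP1 over UI included 0 (0.29, -0.04 to 0.61). Hist2h3c2 was also not higher in the cells with these UMIs, at 0.81-fold, 0.62-fold and 0.96-fold. It went the other way, at -0.13 for LP1 and -0.94 for LP4 over UI. Hist1h1c was between the 13 and the 4 members, at 1.57-fold, 1.39-fold and 1.25-fold. By type in UI, the summed ratio was 11.3-fold for H2A, 5.88-fold for H1, 5.36-fold for H3, 5.27-fold for H4 and 2.16-fold for H2B.

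**Figure D4:**
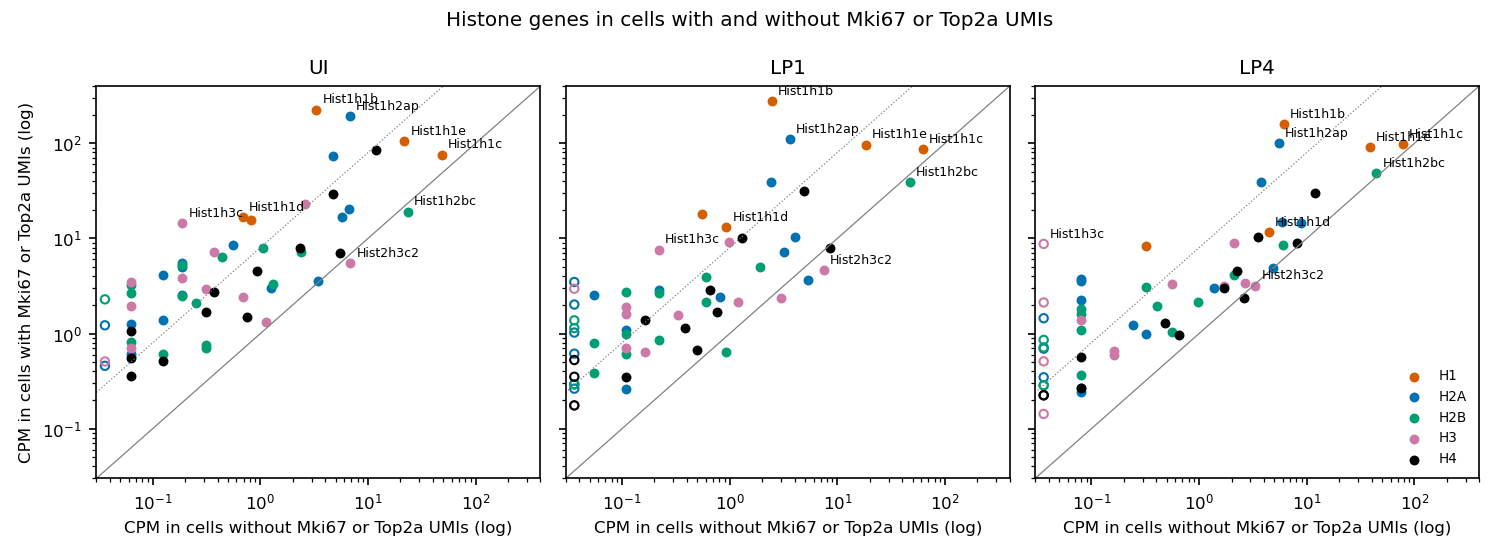
Level of each member in cells with at least 1 Mki67 or Top2a UMI against its level in cells with none, in CPM on log axes, within UI, LP1 and LP4, colored by histone type. The solid line marks equal levels and the dotted line an 8-fold difference. Open symbols mark members with 0 UMIs in the cells with none. Hist1h1b lay far above the line of equal levels in each library, while Hist1h2bc lay close to it in all 3.

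Deeper cells reach 1 UMI of Mki67 or Top2a more easily, so the classes were also set on 2000 UMIs drawn from each cell (thinning), for which 122, 13 and 45 cells were too shallow. The share of cells with these UMIs was then 28.5%, 29.2% and 37.9%. Within the cells with them, the summed histone level was 1705, 1435 and 1187 CPM in UI, LP1 and LP4, and within the cells without them 209, 230 and 293 CPM. The ratio was 8.14-fold, 6.24-fold and 4.06-fold. As log2 ratios to UI, the level was -0.25 in LP1 and -0.52 in LP4 in the cells with Mki67 or Top2a UMIs and 0.14 and 0.48 in those without. The genes that set the classes differed between the libraries themselves, since Mki67 stood at 221, 221 and 299 CPM (0.44, 0.40 to 0.48, for LP4 over UI) while Top2a was at -0.28 and the median of 22 genes of G2 and mitosis at -0.27. The class of LP4 therefore need not hold the same kind of cells as that of UI. In the unthinned cells without these UMIs, stromal markers summed to 4.50, 0.60 and 58.2 CPM in UI, LP1 and LP4. With them, they summed to 0.76, 5.18 and 2.49 CPM. Neutrophil markers summed to 297, 121 and 497 CPM without and 444, 371 and 536 CPM with these UMIs. The part of such cells in the ratios was not tested. In the cells richest in S phase RNAs, described below, the sum over all members was at 0.04 for LP4 over UI. Those cells are also set by genes that differed between libraries, and why this value and the -0.52 differ was not tested. How far RNA free in the suspension enters the cells without these UMIs was not tested, since no cell class here is known to lack histone RNA.

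In the thinned cells with Mki67 or Top2a UMIs, H4 was at -1.23 and -1.26, H3 at -0.85 and -0.89 and H2A at -0.74 and -0.73 for LP1 and LP4 over UI. H1 was at 0.27 at 1 h and -0.23 at 4 h. In the cells without them, H2B was at 0.69 and 1.00 and H1 at 0.37 and 0.65, whereas H4 was at -0.61 at 1 h and 0.08 (-0.05 to 0.21) at 4 h. Hist1h2bc was higher after BbLP in both sets of cells, at 1.02 and 1.29 with and 0.99 and 1.14 without these UMIs. Hist1h4d was lower at 1 h in both, at -1.31 and -1.04.

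The members were also followed across cells binned by the UMIs of 22 S phase genes, such as the Mcm replication helicase genes and Pcna, after thinning. Cells with at least 4 of these UMIs were 7.73% of UI, 11.1% of LP1 and 4.91% of LP4 cells. The summed histone level in them was 3183, 2242 and 3263 CPM, against 199, 236 and 310 CPM in cells with none. H1 in the top bin stood at 1346, 1390 and 1679 CPM. H2A stood at 1109, 545 and 1073 CPM. H4 stood at 385, 143 and 217 CPM. In the cells richest in S phase RNAs, then, H2A was lower in LP1 than in UI (-1.02) and near UI in LP4 (-0.05), H4 was lower in both (-1.43 and -0.83), and H1 was at 0.05 and 0.32. H3 was at -1.17 and -0.27. H2B was at -0.96 (-1.13 to -0.79) and -0.17 (-0.34 to 0.004), opposite in sign to its ratios over all cells.

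Hist1h1b in the top bin stood at 818, 910 and 1015 CPM, Hist1h2ap at 648, 335 and 624 CPM and Hist1h4d at 241, 85.2 and 120 CPM. Hist1h2bc went the other way across bins, at 17.3, 19.0 and 27.5 CPM in the top bin and 21.4, 46.2 and 47.5 CPM in cells with no S phase UMIs. Within the top bin of UI, cells that also had Mki67 or Top2a UMIs held 4499 CPM of histone RNA and those without 647 CPM. The S phase genes themselves differed between libraries, as given below for the list, so a bin does not hold cells of one state in all 3 libraries.

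**Figure D5:**
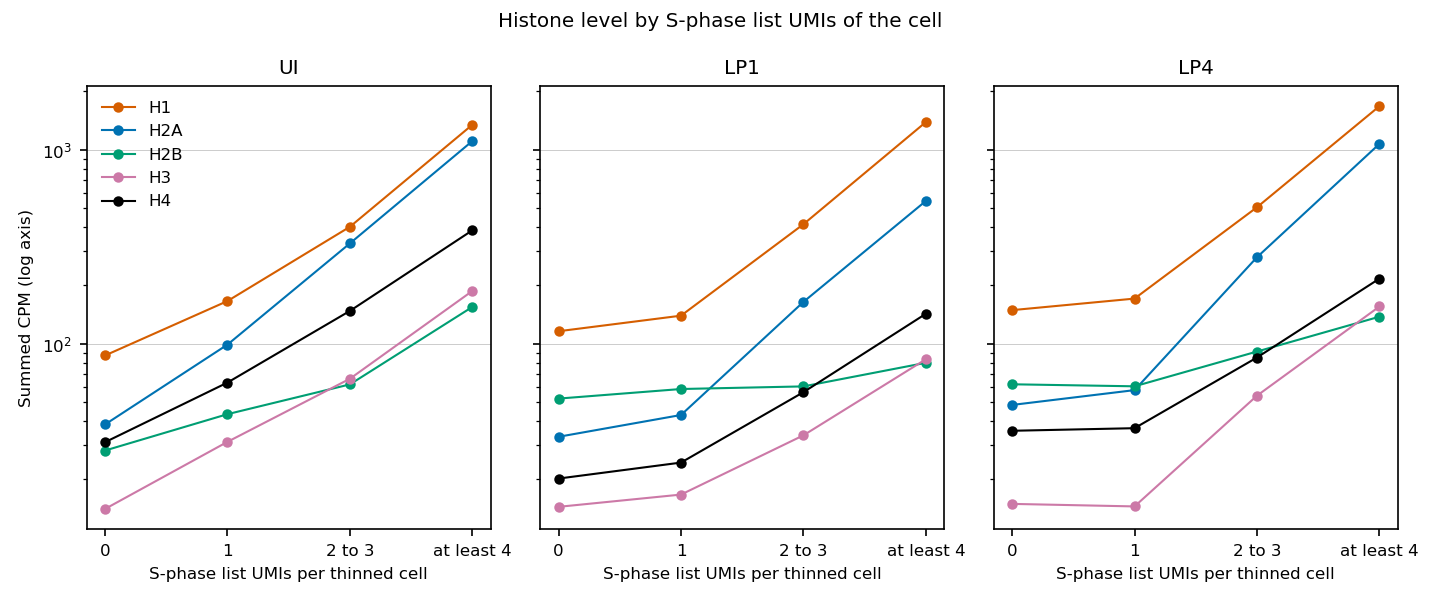
Summed histone level by type in thinned cells with 0, 1, 2 to 3 and at least 4 UMIs of 22 S phase genes, in CPM on a log axis, for UI, LP1 and LP4. In the top bin H2A stood at 1109 in UI, 545 in LP1 and 1073 in LP4, while H1 stood at 1346, 1390 and 1679.

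Histone UMIs were concentrated in few cells. The 5% of cells with most histone UMIs held 74.8% of them in UI, 67.3% in LP1 and 64.2% in LP4, with 7.92%, 7.58% and 8.49% of all UMIs, and 97.4%, 99.2% and 97.9% of these cells had Mki67 or Top2a UMIs. After thinning to 2000 UMIs, 29.5% (28.4 to 30.7) of UI, 31.8% (30.5 to 33.1) of LP1 and 38.4% (37.0 to 39.8) of LP4 cells had at least 1 histone UMI, where the unthinned shares were 53.3%, 68.3% and 82.5%. Cells with at least 10 histone UMIs were 3.09% (2.67 to 3.56), 2.81% (2.37 to 3.30) and 2.29% (1.88 to 2.77) after thinning and 5.58%, 8.06% and 10.5% before. LP4 thus had the highest share of cells with at least 1 histone UMI at equal depth. Its share with at least 10 was the lowest. The interval of LP4 overlapped that of LP1 widely and that of UI only at its edge (up to 2.77 in LP4, from 2.67 in UI). Such overlap does not place a difference within counting error, and the differences were not tested. A single UMI can come from RNA free in the suspension, whose part in these shares was not tested. Cells marked as neutrophils or their precursors numbered 33, 25 and 29, stood at 9194, 6253 and 5086 CPM and held 4.57%, 2.70% and 3.81% of the histone UMIs.

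Members with an annotated transcript well past the stem-loop were, by median, the most evenly spread in each library. In 20 members an annotated transcript ran at least 150 bases past the stem-loop, among them Hist1h1c, Hist1h1e, Hist1h4d, Hist1h4i and Hist1h2be. Their median log2 ratio of cells with over cells without Mki67 or Top2a UMIs in UI was 1.81, against 2.97 in the 20 members with under 150 bases after it and 3.67 in the 20 with no stem-loop found, a group that includes Hist1h1b and Hist1h2bc. In the same order these medians were 1.63, 2.64 and 2.69 in LP1 and 0.95, 1.86 and 1.77 in LP4. The order of the groups after the first thus did not hold in LP4. For LP1 over UI the medians were -0.27, -0.79 and -0.82 in the same order. In UI cells without these UMIs, the first group held 116 CPM and the others 27.1 and 31.2 CPM. Few genes made up much of these sums, with Hist1h1c at 48.3 CPM and Hist1h1e at 21.7 CPM in the first and Hist1h2bc at 23.4 CPM in the last. A stem-loop past the annotated end of a transcript would also count as not found. The types were not spread evenly over the groups, with 6 H4 and 3 H2A genes in the first and 2 and 6 in the last, and the part that type or length had in these medians was not tested.

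Near-identical sequence limits how single members can be read. Of the 60 members, 54 shared at least 1 stretch of 90 bases with another matching gene and 23 shared at least 50% of such stretches. Hist1h2ap shared 92.4% of them with Hist1h2ao, including its last 200 bases in full, and Hist2h2aa1 shared 88.3% with Hist2h2aa2. The last 200 bases of Hist2h2aa1, Hist1h1e, Hist1h3e and Hist1h3f were also shared in full with other matching genes. The values of these genes are therefore uncertain. Hist2h3c2 shared 62.0% with Hist2h3c1, but neither shared a stretch within its last 200 bases. Hist1h1b and Hist1h1a shared none and Hist1h4d 0.858%. In addition, 7 members overlapped another annotated gene on the same strand. Of the members, 49 lay on chromosome 13, 9 on chromosome 3, 1 on chromosome 6 and 1 on chromosome 11.

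H2A and H2B genes often lie head to head and share the DNA between their starts. There were 10 such pairs with 176 to 302 bases between starts, all of an H2A and an H2B gene. For LP1 over UI, both genes were at least 1.5-fold lower in 4 pairs, 1 of the 2 in 5 pairs and neither in 1 pair, and for LP4 over UI the counts were 3, 3 and 4. Over all members, 11 of the 16 H2A and 9 of the 15 H2B genes were that much lower in LP1, so these pair counts say nothing of the pairs themselves. With 251 bases between their starts, Hist1h2ac, named after its values were seen, had -0.26 (-0.70 to 0.19) for LP1 over UI where Hist1h2bc had 0.99 (0.87 to 1.11).

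The promoters, taken as 250 bases before to 50 after the start, were matched in RefSeq (GRCm38.p6) for 54 members and searched on both strands. TATAAA was found in 57.4% of them against 13.6% of 32851 promoters, CCAAT in 85.2% against 37.4%, the octamer ATTTGCAT in 20.4% against 1.74%, and AAACACA in 11.1% against 7.18%. The octamer was in 6 H2A and 5 H2B promoters and in no H1, H3 or H4 promoter, and AAACACA was in 4 of the 5 H1 promoters. A match describes the letters only. The 150 bases before the start are shown for Hist1h1b, which holds AAACACA, and for Hist1h2ac. The promoter of Hist1h2ac lies between it and Hist1h2bc and holds the octamer. Also shown are the 2 most abundant H4 genes, of which Hist1h4h holds none of these motifs. Capitals mark these motifs or their reverse complements. The stretches lie at chr13:21780626-21780775 (minus), chr13:23683960-23684109 (minus), chr13:23581418-23581567 (plus) and chr13:23530894-23531043 (plus) in the order of the lines.
Hist1h1b: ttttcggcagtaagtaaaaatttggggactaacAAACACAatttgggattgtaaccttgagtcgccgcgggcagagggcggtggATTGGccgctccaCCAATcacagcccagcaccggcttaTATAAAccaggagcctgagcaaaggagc
Hist1h2ac: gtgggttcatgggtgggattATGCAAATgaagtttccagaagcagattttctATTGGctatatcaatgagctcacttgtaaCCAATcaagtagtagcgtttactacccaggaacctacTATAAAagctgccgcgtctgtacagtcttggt
Hist1h4d: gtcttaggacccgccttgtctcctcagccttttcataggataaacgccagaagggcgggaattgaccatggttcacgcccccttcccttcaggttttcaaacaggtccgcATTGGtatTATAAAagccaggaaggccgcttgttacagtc
Hist1h4h: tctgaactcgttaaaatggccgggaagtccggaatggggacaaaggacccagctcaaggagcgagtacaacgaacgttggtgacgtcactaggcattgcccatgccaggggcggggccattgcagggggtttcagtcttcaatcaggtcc

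Genes that make, process and handle histones were read from lists beside the members. Of 18 genes for transcription and 3′ processing of histone RNA, none was 1.5-fold different between LP1 and UI, and in LP4 3 were lower and 1 was higher than in UI. A difference of that size was uncommon in LP1 (10.9% of all genes tested lower and 6.71% higher, and 1.32% and 2.37% of the non-member genes with at least 10 CPM and 2000 bases), so the count in LP1 is near the background. In LP4, 30.8% of all genes tested were lower and 20.6% higher, and the counts of the lists below are read against these shares too. Slbp, which binds the stem-loop, stood at 26.8, 27.4 and 22.4 CPM, and Npat, the coactivator of histone genes, at 12.8, 11.7 and 11.7 CPM. E2f1, which activates S phase genes, stood at 26.7, 25.7 and 12.1 CPM.

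Of 12 histone chaperones, which carry histones to DNA, 1 was higher in LP1, and 3 were lower and 2 higher in LP4. Nasp stood at 71.2, 66.1 and 41.1 CPM, and the chromatin assembly genes Chaf1a and Chaf1b at 20.1, 20.7 and 9.66 CPM and 15.5, 16.03 and 8.50 CPM. Asf1a stood at 4.88, 8.46 and 13.1 CPM and Daxx, which deposits histone H3.3, at 38.5, 33.7 and 193 CPM.

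The 10 replacement histones, which are not tied to S phase and are mostly polyadenylated, summed to 2353, 3088 and 3928 CPM, several times the level of the 60 members. H3f3a and H3f3b, both encoding H3.3, stood at 402, 710 and 778 CPM and 934, 1301 and 2137 CPM. The H2A replacement H2afj was lower, at 238, 126 and 99.9 CPM, the linker H1f0 stood at 36.5, 41.6 and 19.5 CPM and the centromeric Cenpa at 18.6, 33.5 and 24.0 CPM. In all, 1 was lower and 2 were higher in LP1, and 2 were lower and 2 higher in LP4.

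Of the 22 S phase genes, none was lower and 4 were higher in LP1, and 10 were lower and 1 was higher in LP4. Pcna, the higher one at both times, stood at 105, 196 and 230 CPM, whereas Mcm7 stood at 28.7, 28.1 and 10.9 CPM. Of 22 genes of G2 and mitosis, none was lower and 4 were higher in LP1, and 2 were lower and 2 higher in LP4.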

How the data were processed

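Cells were captured with the 10x Genomics 3′ kit. The authors deposited raw UMI counts per gene and barcode, made with Cell Ranger 7.1.0 against mm10 per the file headers and the labels. The study's methods name an earlier release of Cell Ranger 7 on the 10x cloud with the prebuilt mm10 reference. Whether intronic reads were counted is not given in the sources used here, and Cell Ranger 7 counts them by default. Cells with over 500 UMIs, over 500 genes and under 5% mitochondrial UMIs were kept, which are the limits the study gives. The paper reports fewer cells after its quality control than were kept here, so the cells are not exactly those of the study. No doublet caller was run.

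UMIs were summed per library and divided by the library's total to give CPM. Ratios carry exact conditional binomial 95% intervals, levels exact Poisson intervals and shares of cells exact binomial intervals. Where 1 side had 0 UMIs, 3 counts stood in for it and the ratio is a bound. With few UMIs on the other side, such a bound can have the sign opposite to the counts. Members at least 1.5-fold apart were counted beside the same count over all genes with at least 20 UMIs. Thinning drew 2000 UMIs per cell without replacement (seed 20). Neutrophil-marked cells had at least 5 UMIs over 6 granule genes. TMM factors came from edgeR 4.0.16, and Python 3.11.15, numpy 2.4.6 and scipy 1.17.1 did the rest. The ratio code was tested on simulated data.

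The 60 members and the gene lists were chosen with earlier results of these data known. Members were named with values when they reached 10 CPM in 1 library, when the study names them, or when their ratio was among the 5 largest in a direction with at least 5 CPM; other members with values in the text were named after their values were seen. Positions and transcripts came from GENCODE vM21 (GRCm38), not the authors' annotation release, and promoters from RefSeq (GRCm38.p6).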

Additional observations from a re-analysis of the deposited data

Results flagged for a closer look

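Each result here had opposite signs in the cells with and without Mki67 or Top2a UMIs, each with its counting interval clear of 0. The difference between these sets was not tested, since each library has no replicate. Over all members, the log2 ratio with and without these UMIs was -0.34 and 0.10 for LP1 over UI, -0.52 and 0.55 for LP4 over UI, and -0.19 and 0.45 for LP4 over LP1. With the sets drawn after thinning to 2000 UMIs the values were -0.25 and 0.14, -0.52 and 0.48, and -0.27 and 0.35.

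By type, H1 stood at -0.26 with and 0.77 without for LP4 over UI, and at -0.42 and 0.59 for LP4 over LP1. H4 stood at -1.18 and 0.22 for LP4 over UI, where after thinning the interval without these UMIs included 0 (0.08, -0.05 to 0.21).

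For LP4 over UI, Hist1h1b stood at -0.50 with and 0.89 without, Hist1h1d at -0.52 and 2.69, Hist1h1e at -0.22 and 0.82, and Hist2h2aa1 at -0.21 and 0.62. After thinning, Hist1h1d stood at -0.64 and 1.96 and Hist1h1b at -0.34 and 0.31. For LP4 over LP1, Hist1h1b stood at -0.80 and 1.32, Hist1h1e at -0.094 and 1.06, and Hist1h2ap at -0.13 and 0.61. In the thinned sets the opposite signs were no longer seen for Hist1h1b (-0.78 and -0.50) or Hist1h2ap (-0.08 and -0.08), while Hist1h1e kept them (-0.20 and 0.68).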

How the results depend on the processing

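Against UI, the sums of H1, H2A, H2B, H3 and H4 kept their signs over the 8 alternatives that used all cells (other scalings, other totals, other cell limits), and 36 of 60 members lower in LP1 became 33 to 37 of 60. With a minimum of 100 UMIs, 28 of 46 genes were lower in LP1, against 5.88% of all genes with that many, and with none 36 of 62 against 14.7%. The small sum over all members was less stable. For LP1 over UI (-0.11) it was -0.043 under TMM, -0.039 under the median of ratios, -0.088 without neutrophil-marked cells and -0.084 without the 5% of cells with most UMIs. For LP4 over UI (-0.05) it was 0.12 under TMM, 0.16 under the median of ratios, -0.074 without mitochondrial and ribosomal protein genes, -0.091 as the mean of the cells' own shares and -0.15 without the cells with most UMIs. For LP4 over LP1 (0.07) it was 0.16 under TMM, 0.20 under the median of ratios, 0.016 by own shares, 0.089 without a mitochondrial limit and -0.066 without the cells with most UMIs. For LP4 over UI, 15 of the 46 genes with at least 100 UMIs were lower, against 27.6% of all genes with that many. For LP4 over LP1, 8 of 60 members were lower by own shares (all genes 27.3%) and 8 without the cells with most UMIs (26.1%), and 19 were higher under the median of ratios (22.8%).

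Cells with Mki67 or Top2a UMIs gave sums of -0.34, -0.52 and -0.19 for LP1 over UI, LP4 over UI and LP4 over LP1, and cells without them 0.10, 0.55 and 0.45. Drawn after thinning to 2000 UMIs, alternatives chosen after seeing the data, these were -0.25, -0.52 and -0.27 with and 0.14, 0.48 and 0.35 without. Of 60 members with these UMIs, 41 were lower and 2 higher for LP4 over UI (all genes 32.4% and 19.8%) and 7 lower for LP4 over LP1 (27.2%). Thinned, 38 were lower and 2 higher for LP4 over UI (all genes 32.8% and 19.5%). For LP4 over LP1, 55 members had at least 20 UMIs when thinned, and 7 of them were lower (all genes so limited 24.7%). Without them, 23 were lower and 16 higher for LP1 over UI (14.8% and 8.26%), 11 and 26 for LP4 over UI (30.6% and 22.4%), and 9 and 23 for LP4 over LP1 (24.1% and 21.3%). Thinned, 10 were higher for LP1 over UI (all genes 7.86%) and 16 for LP4 over UI (21.4%). For LP4 over LP1, 35 members had at least 20 UMIs when thinned. Of these, 2 were lower and 20 higher (all genes so limited 24.0% and 18.9%). Many members had few UMIs in these cells, and 3 counts stood in for 0. Hist1h4j, Hist1h2ah and Hist1h4f, with 1 UMI in UI and 0 in LP1 and LP4, were therefore counted as higher. The counts higher without a minimum thus cannot be read as increases. At least 20 UMIs over UI and LP4 were held by 25 members. Of these, 1 was lower and 12 higher for LP4 over UI, against 28.2% and 20.9% of all genes so limited. For LP1 over UI, 26 members had that many over UI and LP1. Of them, 12 were lower and 6 higher, against 8.64% and 5.79%. This limit was added after seeing the data.

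Signs against UI turned for several sums within these cells. With the UMIs, they were H1 in LP4 (-0.26, thinned -0.23) and H2B in LP1 (-0.051, thinned -0.21) and, thinned only, in LP4 (-0.063). Without, they were H3 in LP1 (0.12, thinned -0.17), H2A in LP4 (0.054, thinned 0.038) and H4 in LP4 (0.22, thinned 0.0805). Of the members with at least 10 CPM, Hist1h4d turned in LP4 (0.013), and without these UMIs Hist1h1b, Hist1h1a and Hist1h1e stood at -0.43, -0.57 and -0.23 for LP1 over UI (thinned 0.81, 0.90 and -0.042). The cause was not tested.

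The log2 ratio of cells with over cells without was 2.595, 2.15 and 1.52 in UI, LP1 and LP4. At least 3 UMIs of Mki67 and Top2a gave 3.66, 2.995 and 1.93, and thinning 3.03, 2.64 and 2.02. Leaving out neutrophil-marked cells gave 2.53 in UI and 1.47 in LP4, and leaving out the cells with most UMIs 2.08 in LP1 and 1.30 in LP4.

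No paired analysis was possible because each group is 1 library. Depth limits the members under 1 CPM, whose intervals often span more than a 1.5-fold change either way. Of 468 values of 13 abundant members under the alternatives, 293 lay within the interval of the reported value, 174 outside it and 1 past 1.5-fold turned its sign, and 42 in all had the other sign, 34 of them in the cells with or without Mki67 or Top2a UMIs.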

Other observations

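Barcodes that failed the limits on cells numbered 52 in UI, 54 in LP1 and 369 in LP4. Histone RNA stood at 1410 CPM (1128 to 1742), 329 CPM (267 to 401) and 802 CPM (772 to 833) in them, above the level of the kept cells in UI and LP4 and below it in LP1. The first value rests on 86 histone UMIs.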
